A study of Mus musculus with 12 samples.

Results

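The muscle splicing regulators examined here were 9 genes chosen by name: Rbm20, Rbm24, Rbfox1, Rbfox2, Mbnl1, Mbnl2, Celf1, Celf2 and Qk. They are 9 of the 33641 gene symbols in a table of transcript abundance from mouse heart, and all 9 were among the 13158 genes that passed the filter on low values (at least 1 TPM in at least 3 of 12 libraries). TPM gives the abundance of a transcript relative to all transcripts of its library, whose values sum to a fixed total, corrected for transcript length, so that levels can be compared between genes. The libraries came from the myocardium of male C57BL/6 wild-type mice labelled as about 16 weeks old, a mouse in each library. The treatment protocol in the labels gives an age of about 10 weeks at injection. Mice had a sham operation or surgery for myocardial infarction (MI), the loss of heart muscle after its blood supply is cut. From 2 weeks after surgery they received an injection once a week for 6 weeks, either vehicle or prednisone, a synthetic glucocorticoid, at 1 mg/kg and at the start of the light phase, and hearts were collected 24 hours after the final dose. That gave 4 groups of 3 mice, called sham vehicle, sham prednisone, MI vehicle and MI prednisone below, and no mouse carried an engineered allele per the labels. The comparisons answer whether MI, and prednisone after MI or sham surgery, went with different levels of these regulators or of their transcripts.

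Splicing regulators are proteins that bind short motifs in unspliced RNA and decide whether a nearby exon is kept or skipped. RBM20 keeps exons of titin out of the adult heart's messenger RNA, and its loss causes dilated cardiomyopathy. RBM24 and the RBFOX proteins promote muscle exons, while MBNL and CELF proteins have opposing effects on many exons that switch after birth, and Quaking (Qk) acts in muscle and in vessel wall cells. Several of these genes make proteins of different tails or different places in the cell from alternative exons of their own transcripts, so each gene was followed as a sum and transcript by transcript.

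By GENCODE M21, an annotation of the GRCm38 build, the genes lie at chr19:53677306-53867080 (Rbm20, plus strand), chr13:46418434-46431095 (Rbm24, plus), chr16:5885355-7411526 (Rbfox1, plus), chr15:77078990-77307004 (Rbfox2, minus), chr3:60472830-60629750 (Mbnl1, plus), chr14:120275669-120431697 (Mbnl2, plus), chr2:90940382-91019497 (Celf1, plus), chr2:6539694-7509563 (Celf2, minus) and chr17:10202601-10319854 (Qk, minus). Some of the exons that differ between transcripts of Mbnl1, of Rbm20 and of Qk are printed here from M21, 5′ to 3′ on the gene's strand. They are not all the differences between those transcripts. Letters are in lower case throughout because the whole stretch, not a part of it, is what differs between the transcripts. The longer of the Mbnl1 exons has 54 bases at chr3:60614683-60614736, is coding, and is in Mbnl1-214 but not in Mbnl1-201. The shorter has 36 bases at chr3:60621423-60621458, is coding, and is in Mbnl1-201 but not in Mbnl1-214. The Rbm20 exon has 46 bases at chr19:53852354-53852399, is an internal exon of Rbm20-201, a transcript classed as a target of nonsense-mediated decay, and is not in the full-length Rbm20-203. The Qk pair are the last coding segments of Qk-201 (41 bases, chr17:10215434-10215474) and of Qk-202 (23 bases, chr17:10214172-10214194), which differ between the transcripts. M21 classes Qk-202 as a target of nonsense-mediated decay and Qk-201 as protein coding.
Mbnl1 54-base exon: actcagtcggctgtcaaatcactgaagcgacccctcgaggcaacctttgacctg
Mbnl1 36-base exon: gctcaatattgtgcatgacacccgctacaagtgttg
Rbm20 46-base exon: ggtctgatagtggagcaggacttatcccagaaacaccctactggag
Qk-201 coding tail: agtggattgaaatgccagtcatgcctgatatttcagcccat
Qk-202 coding tail: gtatggctttcccaacgaaaggc

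For Celf2 the transcripts that moved differ in where they start. RefSeq promoter windows of 300 bases (GRCm38.p6, from 250 bases before a start to 50 bases after it) were found for 7 of the 9 genes, 13 windows in all, not for Rbm20 or Rbfox2. The Celf2 windows printed here are the one at the start of Celf2-226, whose share fell in MI prednisone (chr2:7081253-7081552, minus strand), and the one whose start lies closest to that of Celf2-202, whose share rose (chr2:6721613-6721912, minus strand).
Celf2 window at the start of Celf2-226: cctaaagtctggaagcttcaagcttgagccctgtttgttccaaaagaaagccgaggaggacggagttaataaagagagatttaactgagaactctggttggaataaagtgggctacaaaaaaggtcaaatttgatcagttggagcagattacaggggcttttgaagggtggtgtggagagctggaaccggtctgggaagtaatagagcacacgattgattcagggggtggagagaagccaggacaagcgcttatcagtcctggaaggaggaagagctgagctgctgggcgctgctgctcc
Celf2 window by the start of Celf2-202: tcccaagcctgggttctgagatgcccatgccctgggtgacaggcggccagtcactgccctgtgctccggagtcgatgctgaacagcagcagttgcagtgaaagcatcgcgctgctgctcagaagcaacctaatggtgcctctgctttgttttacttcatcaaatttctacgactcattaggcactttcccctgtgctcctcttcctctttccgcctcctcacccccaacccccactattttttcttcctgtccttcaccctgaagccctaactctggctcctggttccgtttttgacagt
Capitals would mark a match to any of 4 strings on either strand, and neither window holds one. The strings were the palindromic glucocorticoid response element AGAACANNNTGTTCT, its single arm AGAACA, the E-box CACGTG and the TATA string TATAAA, of which the second is part of the first. None of the 13 windows held the full element, which 0.00913% of all 32851 windows hold. The arm AGAACA was in 2 of the 13 windows, at Celf2 and at Rbfox1, against 19.0% of all windows. CACGTG was in 1 window and TATAAA in 2, against 7.15% and 13.6%. The windows differed in base composition, from 39.3% G and C at the upstream Mbnl1 start to 81.7% at Qk, with a median of 52.7% over all windows. A match, or its absence, describes these letters only.

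The labels' tissue was borne out by the defining genes of heart muscle cells. All 8 cardiomyocyte markers were at 1 TPM or more in every library, with a sum of 24169 to 30243 TPM in MI vehicle, 33797 to 36278 TPM in MI prednisone and 34232 to 40839 TPM in the sham groups. Libraries differed in ways that touch what follows. MI vehicle replicate 3 listed 14307 genes at 1 TPM or more, against 11690 to 12772 in the other 11, and its median gene stood 0.74 above the sham vehicle mean on the log2 scale, against -0.07 to 0.25 elsewhere. Its lymphocyte markers (4 genes) summed to 188 TPM, against 3.09 to 15.4 TPM in the other 11. Its adipocyte markers (4 genes) summed to 435 TPM, against 4.22 to 193 TPM. The part of these sums in the results below was not tested. In the MI prednisone libraries longer genes were lower. Gene length here and below is the mean spliced length of a gene's M21 transcripts, weighted by TPM, and not its span on the chromosome. The Spearman correlation of a gene's deviation with this length was -0.40, -0.41 and -0.27, against -0.12 to 0.24 in the other 9. Fibroblast markers (7 genes) summed to 869 to 1134 TPM in MI vehicle and to 323 to 562 TPM in MI prednisone, and macrophage markers (6 genes) to 520 to 1207 TPM and 256 to 481 TPM. Atrial markers (4 genes) summed to 4335 to 6173 TPM in MI prednisone, above MI vehicle (2802 to 4106 TPM) and the sham groups (845 to 2686 TPM). The median gene moved between the groups as well, by 0.39 (log2) in MI against sham with vehicle, -0.06 in MI against sham with prednisone, -0.41 in prednisone against vehicle after MI and 0.07 in prednisone against vehicle after sham surgery. Values rescaled to remove that shift (median-ratio rescaling) are therefore given beside the gene-level comparisons of the 9 regulators. Those of the gene lists are as deposited and are set against the median and the share called over all genes. In tissue, fewer cells of a type and less RNA per cell cannot be told apart. The number of reads is not known from TPM, and with 3 mice a group the smallest p of an exact two-sided test is 0.1, so tests are those of limma over all genes, with p-values adjusted by Benjamini-Hochberg.

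In sham vehicle hearts the level was highest for Qk, at 47.8 ± 3.2 TPM (SD, n = 3), followed by Rbm24 at 43.5 ± 5.8 TPM. Rbm20 came next at 34.1 ± 2.5 TPM, then Mbnl2 at 29.0 ± 2.2 and Mbnl1 at 26.7 ± 2.7 TPM. The lower levels were those of Celf1 (18.8 ± 2.1 TPM), Rbfox2 (13.9 ± 1.1 TPM), Celf2 (13.8 ± 3.0 TPM) and Rbfox1 (10.4 ± 0.046 TPM). The libraries of Qk and Rbm24, of Mbnl2 and Mbnl1, and of Rbfox2 and Celf2 overlapped, so the order within those pairs is not larger than the spread. Every other neighbour in the order was separated in all 3 sham vehicle libraries. Of their 7 paralogues, Mbnl3, Rbfox3, Celf3, Celf4, Celf5, Celf6 and Rbm38, only Rbm38 passed the filter (46.6 to 82.0 TPM), and the other 6 were between 0 and 2.22 TPM in every library.

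**Figure D1:**
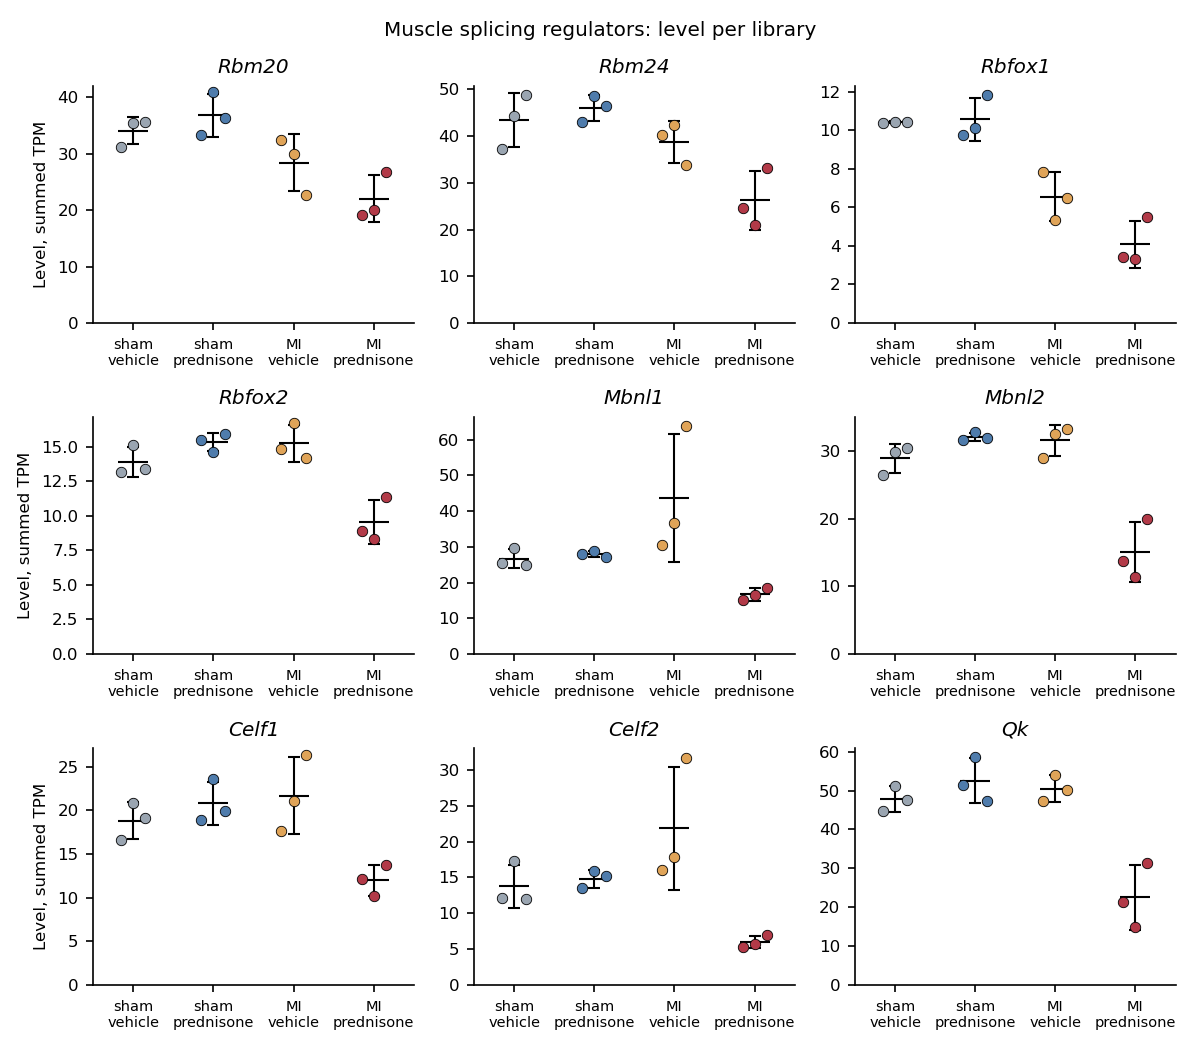
Level of each regulator as summed TPM (y axis, from 0) in each of 12 libraries, by group (x axis), with the group mean and SD in black (n = 3). The MI prednisone libraries lie below the sham prednisone libraries in all 9 panels, and MI vehicle replicate 3 is the highest library for Mbnl1 (63.9 TPM) and Celf2 (31.7 TPM).

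Rbm20, the titin splicing repressor, was at 31.2, 35.5 and 35.5 TPM in the sham vehicle, 33.3, 40.8 and 36.3 in the sham prednisone, 32.4, 30.01 and 22.7 in the MI vehicle, and 19.2, 19.99 and 26.8 in the MI prednisone hearts. Rbm24, which promotes inclusion of muscle exons, was at 37.3, 44.3 and 48.8 TPM in the sham vehicle, 43.1, 48.6 and 46.4 in the sham prednisone, 40.2, 42.5 and 33.8 in the MI vehicle, and 24.6, 20.97 and 33.1 in the MI prednisone hearts. For both genes the MI prednisone libraries were below every sham library. For Rbm24 they were also below every MI vehicle library, whereas the Rbm20 values of the 2 MI groups overlapped.

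Rbfox1, whose protein binds GCAUG beside muscle exons, was at 10.4, 10.5 and 10.4 TPM in the sham vehicle, 9.77, 10.1 and 11.8 in the sham prednisone, 7.85, 5.32 and 6.498 in the MI vehicle, and 3.41, 3.31 and 5.51 in the MI prednisone hearts. All 6 MI libraries were thus below all 6 sham libraries, and the 2 MI groups overlapped. Rbfox2, its broadly expressed relative, was at 13.2, 15.1 and 13.4 TPM in the sham vehicle, 15.5, 14.6 and 15.9 in the sham prednisone, 14.8, 16.7 and 14.2 in the MI vehicle, and 8.92, 8.33 and 11.4 in the MI prednisone hearts. Only the MI prednisone libraries of Rbfox2 stood apart from the rest.

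Mbnl1, the main muscleblind protein of adult muscle, was at 25.5, 29.7 and 24.8 TPM in the sham vehicle, 28.0, 28.9 and 27.3 in the sham prednisone, 30.4, 36.6 and 63.9 in the MI vehicle, and 15.1, 16.5 and 18.6 in the MI prednisone hearts. Mbnl2 was at 26.5, 29.9 and 30.5 TPM in the sham vehicle, 31.7, 32.8 and 32.0 in the sham prednisone, 29.0, 32.5 and 33.4 in the MI vehicle, and 13.8, 11.4 and 20.1 in the MI prednisone hearts. The MI prednisone libraries were the lowest 3 of 12 for both genes. The highest Mbnl1 value was that of MI vehicle replicate 3, the library with the most genes listed and the highest lymphocyte and adipocyte marker sums.

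Celf1, an antagonist of MBNL proteins that also shortens the life of some messages, was at 16.6, 20.8 and 19.1 TPM in the sham vehicle, 18.9, 23.6 and 19.9 in the sham prednisone, 17.6, 21.1 and 26.3 in the MI vehicle, and 12.1, 10.2 and 13.7 in the MI prednisone hearts. Celf2, of the same family, was at 12.2, 17.3 and 11.9 TPM in the sham vehicle, 13.5, 15.9 and 15.1 in the sham prednisone, 16.1, 17.8 and 31.7 in the MI vehicle, and 5.35, 5.78 and 6.93 in the MI prednisone hearts. Qk was at 44.8, 51.3 and 47.5 TPM in the sham vehicle, 51.5, 58.7 and 47.3 in the sham prednisone, 47.3, 54.1 and 50.2 in the MI vehicle, and 21.2, 14.9 and 31.4 in the MI prednisone hearts. For these 3 genes too the MI prednisone libraries were the lowest 3 of 12.

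With vehicle in both groups, MI went with a lower level of 1 regulator. Rbfox1 fell, by 0.61 ± 0.18 (log2 change ± SE; limma adjusted p = 0.0432), and it was the 1 of 9 regulators called, against 16% of all genes tested. Rescaled, the Rbfox1 change was -1.002 (limma adjusted p = 0.0329). The call was lost under most alternatives, among them 5 of the 6 fits that each left out a library (all but that without MI vehicle replicate 1), and also without the filter on low values, with only the most abundant transcript of each gene, and in the fit of these 2 groups alone. Mbnl1 was at 0.62 ± 0.22 and Celf2 at 0.59 ± 0.23, with limma adjusted p of 0.0652 and 0.0850, and without MI vehicle replicate 3 these values were 0.32 and 0.30. Median-ratio rescaling put Mbnl1 at 0.18 and Celf2 at 0.15 (limma adjusted p = 0.367 and 0.509). Without MI vehicle replicate 1 both passed the test on values as deposited. The other 6 regulators lay between -0.27 and 0.18, and between -0.71 and -0.25 after rescaling. The median of the 9 was 0.12, below the median of 0.39 over all genes, and 7 of the 9 were below that median.

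With prednisone in both groups, MI went with lower levels of all 9 regulators, against 16.8% of genes called in either direction and 14.1% called lower. The MI and sham libraries of all 9 did not overlap, as in 45.2% of all genes. Qk fell by 1.24 ± 0.21 on the log2 scale (limma adjusted p = 0.00329), Rbfox1 by 1.21 ± 0.18 (0.00214), Celf2 by 1.18 ± 0.23 (0.00628) and Mbnl2 by 1.08 ± 0.17 (0.00232). Rbm24 fell by 0.81 ± 0.16, Celf1 by 0.75 ± 0.16, Rbm20 by 0.73 ± 0.16, Mbnl1 by 0.72 ± 0.22 and Rbfox2 by 0.64 ± 0.13, with limma adjusted p-values from 0.00711 (Rbfox2) to 0.0429 (Mbnl1). The median of the 9 was -0.81 and that of all genes -0.06. Rescaled, all 9 stayed below 0 and 6 stayed called, where 3344 of all 13158 genes were called in either direction. Rbm20 (-0.64, limma adjusted p = 0.0932), Rbm24 (-0.73, 0.0590) and Rbfox2 (-0.56, 0.0521) did not pass. After a correction for gene length the same 3 did not pass. Leaving out 1 library cost up to 3 calls: without sham prednisone replicate 2, or without MI prednisone replicate 2, Rbm20, Mbnl1 and Celf1 did not pass, without MI prednisone replicate 1 Rbm20 and Mbnl1 did not, and without sham prednisone replicate 1 or 3 Mbnl1 did not.

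**Figure D2:**
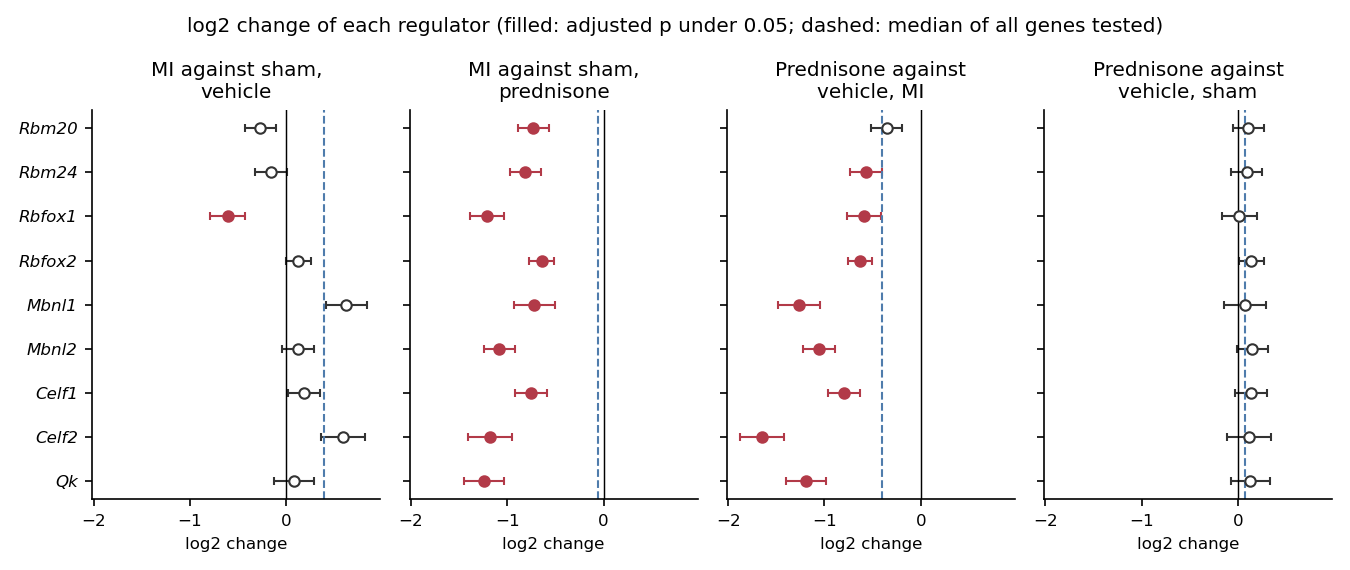
Change of each regulator (x axis, log2 of TPM + 1, with SE) in 4 comparisons, filled where the limma adjusted p is under 0.05. The dashed line is the median over all genes tested: all 9 regulators lie left of it in MI against sham with prednisone, and 8 lie left of it in prednisone against vehicle after MI, where Rbm20 (-0.35) lies just right of it.

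Prednisone against vehicle after MI gave lower levels of 8 of the 9 regulators, against 37.4% of genes called in either direction and 34.9% called lower. Celf2 fell by 1.65 ± 0.23 on the log2 scale (limma adjusted p = 0.00102), Mbnl1 by 1.27 ± 0.22 (0.00206), Qk by 1.19 ± 0.21 (0.00218) and Mbnl2 by 1.06 ± 0.17 (0.00152). Celf1 fell by 0.80 ± 0.16 (0.00456), Rbfox2 by 0.63 ± 0.13 (0.00427), Rbfox1 by 0.59 ± 0.18 (0.0250) and Rbm24 by 0.57 ± 0.16 (0.0205). Rbm20 was at -0.35 ± 0.16 (limma adjusted p = 0.0996). The groups did not overlap for 7 of the 9, all but Rbm20 and Rbfox1, and for 46.2% of all genes. The median of the 9 was -0.80, that of all genes -0.41. Rescaled, 2 remained called, Celf2 at -1.22 (limma adjusted p = 6.93e-04) and Mbnl1 at -0.82 (0.00196), while Mbnl2 (-0.61, 0.0531) and Qk (-0.74, 0.0621) did not pass and Rbm20 stood at 0.09. The share of all genes called after rescaling is not given for this comparison. Without MI vehicle replicate 3 all 9 were called, with Celf2 at -1.36 and Mbnl1 at -0.96, and so they were without MI prednisone replicate 3. Rbm24 and Rbfox1 did not pass without MI prednisone replicate 1 or 2, Rbfox1 did not pass without MI vehicle replicate 1, and Rbm24 did not pass without MI vehicle replicate 2. In the fit of the 2 MI groups alone 4 passed: Celf2, Mbnl1, Mbnl2 and Qk. After the correction for gene length, which left 2163 of all genes called in place of 4917, Celf2 (-1.07, limma adjusted p = 0.00131) and Mbnl1 (-0.69, 0.00492) remained called. The others then stood at -0.51 (Qk), -0.43 (Mbnl2), -0.17 (Celf1), -0.11 (Rbfox1), -0.0498 (Rbm24), -0.0395 (Rbfox2) and 0.25 (Rbm20). The fibroblast and macrophage sums above were also lower in MI prednisone than in MI vehicle, and the atrial sum higher, and their part in these results was not tested.

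After sham surgery, prednisone against vehicle gave no called change in any regulator. None of the 9 was called by limma, none had an unadjusted p under 0.05, and 0.114% of all genes were called. The 9 changes lay between 0.01 ± 0.18 (Rbfox1) and 0.15 ± 0.17 (Mbnl2), and rescaled between -0.0612 (Rbfox1) and 0.0696 (Mbnl2), with Mbnl1 at -0.0044. The difference between the prednisone effects after MI and after sham surgery was itself tested as an interaction. It was below 0 for all 9 and called for 6, against 21.3% of all genes: Celf2 at -1.76 ± 0.32 (limma adjusted p = 0.00873), Mbnl1 at -1.34 ± 0.31 (0.0150), Qk at -1.32 ± 0.29 (0.0139), Mbnl2 at -1.21 ± 0.23 (0.00987), Celf1 at -0.93 ± 0.23 (0.0202) and Rbfox2 at -0.77 ± 0.18 (0.0163). Rbm24 (-0.65, limma adjusted p = 0.0641), Rbfox1 (-0.60, 0.104) and Rbm20 (-0.46, 0.157) did not pass. Rescaled, where 1141 genes were called in place of 2797, Celf2 (-1.25, limma adjusted p = 0.00977) and Mbnl1 (-0.81, 0.0249) remained called, while Celf1 was at -0.42 and Rbfox2 at -0.26. After the correction for gene length, where 275 genes were called, Celf2 alone remained (-1.09). Without sham vehicle replicate 1 Celf1 and Rbfox2 did not pass, and without sham prednisone replicate 2 Celf1 did not.

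The other splicing regulators are set beside these changes on values as deposited. No rescaled or length-corrected values are given for them, and the part of gene length in the difference was not tested. Of 41 listed genes such as SR proteins, hnRNPs and SR kinases, 39 were tested, and their median was 0.09 in MI against sham with prednisone and -0.19 in prednisone against vehicle after MI. In the first comparison, where 14.1% of all genes were called lower, 2 of 39 fell, Rbpms (-0.49 ± 0.11, limma adjusted p = 0.0123), a muscle RNA-binding protein, and the SR protein kinase Srpk2 (-0.58 ± 0.14, 0.0150). In the second, 6 of 39 fell, where 34.9% of all genes were called lower, with Srpk2 (-0.80 ± 0.14, limma adjusted p = 0.00206), Ptbp3 (-1.65 ± 0.31, 0.00319), Khdrbs1 (-0.96 ± 0.28, 0.0216) and Rbpms (-0.37 ± 0.11, 0.0250) first in order of p. MI with vehicle (16% of all genes called in either direction) raised the SR protein gene Srsf10 (0.80 ± 0.24, limma adjusted p = 0.0435) and lowered Khdrbs3 (-0.35 ± 0.10, 0.0418). In the interaction 5 of 39 fell (21.3% of all genes were called in either direction), with Srpk2 first (-0.998 ± 0.19, limma adjusted p = 0.00981). Rbm38, the paralogue of Rbm24, fell in MI against sham with prednisone (-0.49 ± 0.14, limma adjusted p = 0.0343).

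Behind the gene sums stood 96 transcript rows, of which 40 passed the filter. Rbm24 has a single row, Rbfox1, Mbnl2 and Qk have 2 each, Rbm20 and Rbfox2 have 4 each, Mbnl1 has 25, and Celf1 and Celf2 have 28 each. The 28 Celf1 rows are 14 pairs of identical values, with 14 of the identifiers in M21, so Celf1 transcripts are described below by the sum of each pair, although the fit holds every row. Of the 40 rows, 3 rose and 20 fell in MI against sham with prednisone, against 22.3% of all transcripts called. After MI, prednisone against vehicle raised 5 and lowered 21, against 33%. Rescaled, 16 rows in place of 26 were called in that comparison and 7 in place of 15 in the interaction. The share of all transcripts called after rescaling is not given here. With each identical Celf1 pair taken once, 3 of 36 transcripts rose and 18 fell in the first comparison, and 4 rose and 19 fell in the second. The interaction was above 0 for 2 and below 0 for 13 of those called, against 18.7%, and 9 in place of 15 were called without sham vehicle replicate 3, sham prednisone replicate 2 or MI prednisone replicate 1 or 2. In MI against sham with vehicle none was called by limma (2 without MI vehicle replicate 1; 2.84% of all transcripts, and 6 of the 32 rows averaging 1 TPM or more at an unadjusted p under 0.05). Nor was any called for prednisone after sham surgery (0.054%, and 1 of 32).

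The share of a gene's TPM in each transcript does not depend on how the gene as a whole is scaled. Of 34 transcripts with a mean share of at least 5%, in the 8 genes with at least 2 such transcripts, 16 changed share in MI against sham with prednisone (22.5% of all transcripts tested) and 17 in prednisone against vehicle after MI (20.6%). With each Celf1 pair taken once these were 15 of 30 in both. None changed in MI against sham with vehicle (0.0591%, and 1 of 34 at an unadjusted p under 0.05) or with prednisone after sham surgery (0.0185%, and 1 of 34). The interaction was called for 4, against 10.9% of all: Rbm20-201, Rbm20-203, Mbnl1-214 and Celf2-202. Leaving out 1 library lowered the 16 to 10 (without sham prednisone replicate 1), 9 (without sham prednisone replicate 2 or 3), 8 (without MI prednisone replicate 1) or 7 (without MI prednisone replicate 2). It lowered the 17 to 11 (without MI vehicle replicate 1) or 9 (without MI prednisone replicate 1 or 2), and raised the 4 to 7 (without sham vehicle replicate 2) or 10 (without MI prednisone replicate 3). A share is the quantifier's estimated division of reads among overlapping transcripts, and uneven coverage along a gene moves it. The alternatives counted below for shares were the untransformed share, a 10% minimum, the replicate block and each library left out, with no length correction.

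Rbm20 changed most. Its full-length transcript Rbm20-203 (ENSMUST00000164202.7) was at 22.9, 26.1 and 27.7 TPM in the sham vehicle, 26.9, 27.6 and 28.2 in the sham prednisone, 24.1, 23.3 and 16.7 in the MI vehicle, and 6.18, 5.73 and 12.8 in the MI prednisone hearts. Rbm20-201 (ENSMUST00000161856.1), the transcript with the 46-base exon, was at 4.36, 2.74 and 2.44, then 1.72, 4.35 and 2.89, then 1.02, 1.84 and 1.33, and in MI prednisone at 12.2, 13.6 and 10.8 TPM. The values of the 2 transcripts moved in opposite directions in every MI prednisone library, and for both those 3 libraries overlapped no other. Rbm20-201 rose by 2.47 ± 0.26 on the log2 scale in prednisone against vehicle after MI (limma adjusted p = 1.58e-04), and Rbm20-203 fell by 1.34 ± 0.24 (0.00251), although the gene's sum was not called. The share of Rbm20-201 went from 5.05% ± 1.66 (SD, n = 3) in MI vehicle to 57.3% ± 15.0 in MI prednisone (limma adjusted p = 6.56e-04) and that of Rbm20-203 from 75.2% ± 2.12 to 36.2% ± 10.1 (0.00188). Both calls held under all 9 alternatives in either comparison with MI prednisone. In M21, Rbm20-201 begins 13 bases before exon 9 of the 14 exons of Rbm20-203, at 87.4% of the gene's span, and its last exon runs 1700 bases past that of Rbm20-203. The identifier of Rbm20-203 in the table has another version than in M21, so its exact ends are those of the annotation and not of the table. The third transcript, Rbm20-202, ends 28.2% of the span short of the gene's end and went from 19.8% ± 3.19 to 6.498% ± 4.93 (limma adjusted p = 0.0221, lost under 4 of 9 alternatives).

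**Figure D3:**
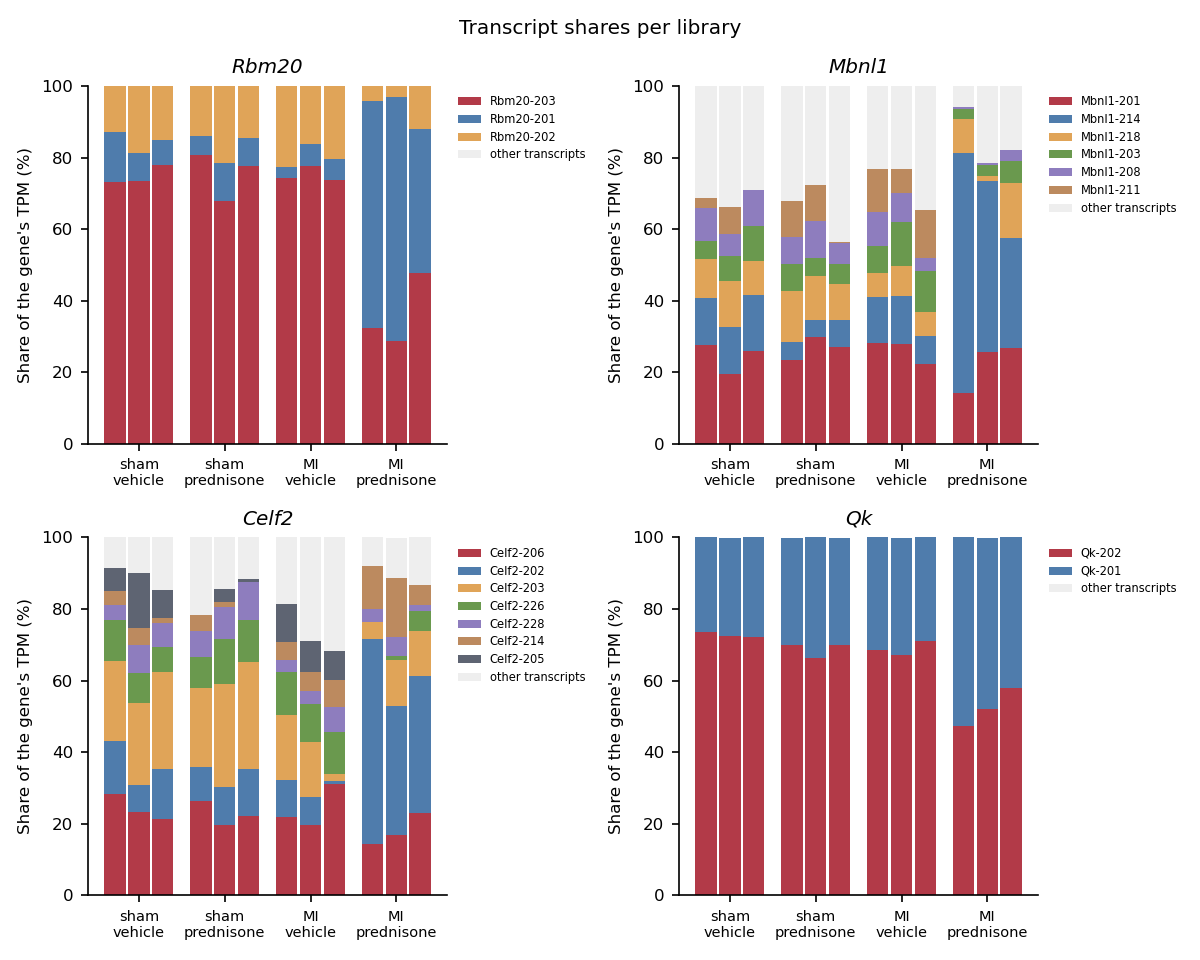
Share of each gene's TPM (y axis, percent) in each transcript with a mean share of at least 5%, for 12 libraries in 4 groups (a bar each, x axis), in Rbm20, Mbnl1, Celf2 and Qk; grey is all other transcripts. Rbm20-201 takes 40.1% to 68.2% of Rbm20 in the MI prednisone libraries and 3.14% to 13.9% in the other 9, and Mbnl1-214, Celf2-202 and Qk-201 are also largest in those libraries.

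Mbnl1-214 (ENSMUST00000193517.5), the transcript with the 54-base exon, took 13.0%, 13.3% and 15.7% of Mbnl1 in the sham vehicle, 5.30%, 4.58% and 7.64% in the sham prednisone, 12.8%, 13.5% and 7.74% in the MI vehicle, and 67.2%, 47.8% and 30.8% in the MI prednisone hearts. Its share rose by 42.7 percentage points in MI against sham with prednisone (limma adjusted p = 0.00173) and by 37.2 points in prednisone against vehicle after MI (0.00514), under all 9 alternatives in each. Its level rose too, from 4.59 TPM as the mean of MI vehicle to 7.91 TPM (log2 change 0.65 ± 0.20, limma adjusted p = 0.0297), while the gene's sum fell. Mbnl1-201 (ENSMUST00000099087.7), with the 36-base exon, was at 8.52, 10.2 and 14.3 TPM in MI vehicle and 2.12, 4.22 and 4.98 TPM in MI prednisone (-1.35 ± 0.25, limma adjusted p = 0.00261). Its share of 26.1% ± 3.25 against 22.1% ± 7.04 did not pass (limma adjusted p = 0.554). The shares of Mbnl1-208 and Mbnl1-211 fell by 5.67 and by 10.7 points (limma adjusted p = 0.0499 and 0.0222), and these calls were lost under 6 and 5 of 8 alternatives.

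Summed over the transcripts with both flanking exons (10 for the longer exon, 6 for the shorter), the Mbnl1 exons gave a share that holds each. The 54-base exon, in the region of MBNL1 that governs its place in the nucleus, was in 39.1%, 43.5% and 45.99% of transcript TPM in sham vehicle and in 31.0%, 27.3% and 54.5% in sham prednisone. It was in 32.8%, 37.8% and 38.4% in MI vehicle and in 83.3%, 63.3% and 59.9% in MI prednisone. The 36-base exon was in 68.6%, 67.3% and 67.5%, then 77.0%, 86.3% and 80.6%, then 75.5%, 73.9% and 86.5%, and in MI prednisone in 19.98%, 37.5% and 51.7%. The MI prednisone libraries were the highest 3 of 12 for the longer exon and the lowest 3 for the shorter. These exon shares were added after the transcript shares were seen and were not tested.

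**Figure D4:**
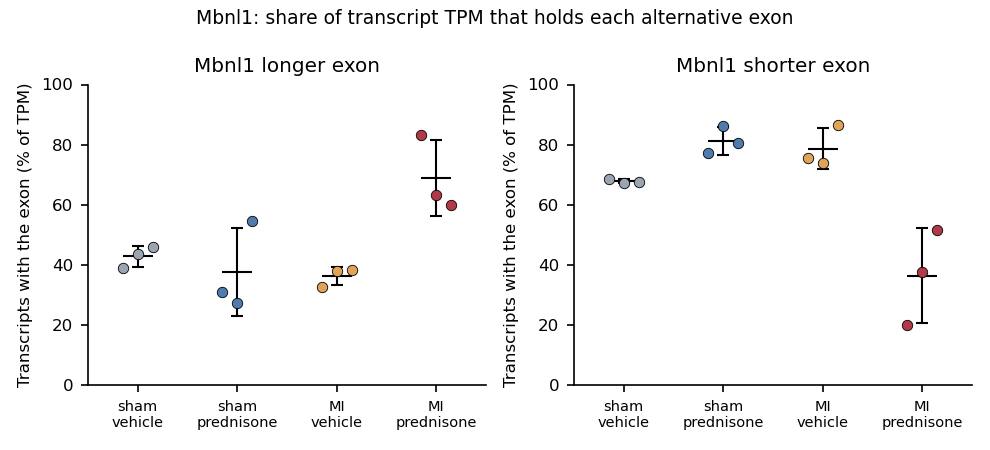
Share of Mbnl1 transcript TPM (y axis, percent, from 0 to 100) that holds the 54-base exon (left) and the 36-base exon (right), by library and group (x axis), with the mean and SD (n = 3). The MI prednisone libraries lie at 59.9% to 83.3% for the longer exon and at 19.98% to 51.7% for the shorter, apart from all others in both.

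Celf2-202 (ENSMUST00000100429.10), from the downstream start, took 14.8%, 7.65% and 13.98% of Celf2 in the sham vehicle, 9.56%, 10.6% and 12.9% in the sham prednisone, 10.3%, 7.90% and 0.915% in the MI vehicle, and 57.2%, 35.9% and 38.2% in the MI prednisone hearts. The rise was 32.7 points in MI against sham with prednisone (limma adjusted p = 0.00566) and 37.4 points in prednisone against vehicle after MI (0.00230), under all 9 alternatives in each. Its level was 1.66, 1.41 and 0.290 TPM in MI vehicle and 3.06, 2.08 and 2.65 TPM in MI prednisone (0.82 ± 0.27, limma adjusted p = 0.0354). Celf2-226 (ENSMUST00000183209.7), from the upstream start whose window is printed above, fell from 1.92, 1.91 and 3.69 TPM to 0, 0.0672 and 0.398 TPM (-1.58 ± 0.25, limma adjusted p = 0.00138). Its share fell from 11.4% ± 0.632 to 2.30% ± 3.03 (limma adjusted p = 0.0201, lost under 4 of 8 alternatives). Another Celf2 transcript, ENSMUST00000114927.8, went from 9.02% ± 1.30 to a share listed at 0 in all 3 MI prednisone libraries (limma adjusted p = 0.00514, under all 8 alternatives). The share of the transcript with the highest level, Celf2-206, was 24.1% ± 6.06 in MI vehicle and 18.1% ± 4.47 in MI prednisone (limma adjusted p = 0.333).

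The Celf1 pair of Celf1-205 held 0.0160%, 2.79% and 0.00144% of the gene in MI vehicle and 50.8%, 57.4% and 21.01% in MI prednisone. In the sham libraries it held 0.903% to 18.6%, so that the MI prednisone libraries were the highest of all 12. A single row of the pair rose by 21.1 points after MI (limma adjusted p = 0.00732) and, against sham with prednisone, by 16.4 points without passing (0.0528). The pair of Celf1-206, the largest in sham hearts, held 44.0%, 38.7% and 13.0% in MI vehicle and 3.48%, 2.95% and 33.2% in MI prednisone, and its rows did not pass (limma adjusted p = 0.175). Celf1-205 starts 58182 bases downstream of the Celf1-206 and Celf1-201 start.

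Qk-201 and Qk-202, whose last coding segments are printed above, had a more even exchange. Qk-202 (ENSMUST00000097414.9) was at 32.4, 36.2 and 35.6 TPM in MI vehicle and 10.1, 7.74 and 18.2 TPM in MI prednisone (-1.54 ± 0.23, limma adjusted p = 9.22e-04). Qk-201 (ENSMUST00000042296.7) was at 14.9, 17.8 and 14.5 TPM and at 11.2, 7.15 and 13.2 TPM (-0.57 ± 0.20, limma adjusted p = 0.0484). Both fell, and the share of Qk-201 went from 31.1% ± 2.01 to 47.5% ± 5.35 (limma adjusted p = 0.0127), under all 9 alternatives. Both identifiers have another version in M21 than in the table.

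The RBFOX genes differed from each other. Rbfox2-203 (ENSMUST00000166610.7) went from 2.05% ± 3.10 of Rbfox2 in sham prednisone to 24.1% ± 3.04 in MI prednisone (limma adjusted p = 0.00558, under all 9 alternatives), but from 11.4% ± 5.45 in MI vehicle the change did not pass (0.147). Rbfox2-202, the largest transcript, held 64.4% ± 3.79 in MI prednisone and 63.7% ± 6.74 in MI vehicle (limma adjusted p = 0.936). Rbfox1-202 (ENSMUST00000115841.9) was listed at 0, 0 and 0.145 TPM in MI prednisone and at 1.17, 0.461 and 2.75 TPM in MI vehicle. Its share fell by 21.1 points (limma adjusted p = 0.0196, lost under 3 of 9 alternatives). Mbnl2-202 held 87.2% to 94.7% of Mbnl2 as a group mean in all 4 groups, and its share passed no test.

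In 5 of the 6 regulators with both a gaining and a losing transcript called after MI, the one that gained most starts downstream of the one that lost most: Rbm20, Mbnl1, Celf1, Celf2 and Qk. The distance ran from 474 bases in Qk to 359687 bases in Celf2. Rbfox1 was the exception, with the gaining transcript at -460084 bases, that is, upstream. Over all 1841 genes with such a pair in that comparison, the gaining transcript started downstream in 66.2%, and in MI against sham with prednisone in 64.7% of 2062 genes. That share of genes and the correlation with gene length given above move with the transcript results in the same 3 MI prednisone libraries, and their part in those results was not tested. Some transcripts stop short of the 3′ end of their gene by over 10% of its span. In genes with both these and other transcripts, they held 20.9% to 22.9% of TPM in MI prednisone and 21.7% to 24.2% in the other groups. Over the tested transcripts with a place in M21, the median log2 change of these was -0.26 in MI against sham with prednisone, against -0.04 for the others. It was -0.44 against -0.34 in prednisone against vehicle after MI. In MI against sham with vehicle it was 0.24 against 0.32, and for prednisone after sham surgery 0.08 against 0.06. These medians were not tested.

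Known targets of RBM20 were followed as the list of 16 genes, all tested. Gene levels of this list and of the next are as deposited, without a length correction. Longer genes, by the transcript length defined above, were lower in the MI prednisone libraries, and the part of gene length in these counts was not tested. In MI against sham with prednisone 9 of 16 fell and none rose, against 14.1% of all genes called lower, with Lmo7 (-1.29 ± 0.15, limma adjusted p = 0.00118), the calcium release channel gene Ryr2 (-1.44 ± 0.21, 0.00216) and the kinase gene Camk2d (-1.17 ± 0.18, 0.00251) among them. In prednisone against vehicle after MI 5 of 16 fell and none rose, close to the 34.9% of all genes called lower, among them Lmo7 (-1.18 ± 0.15, limma adjusted p = 8.11e-04), Camk2d (-0.94 ± 0.18, 0.00375) and Camk2g (-0.52 ± 0.12, 0.00642). MI with vehicle raised 3 of 16 and lowered 2, against 16% of all genes called: it raised Rtn4 (1.08 ± 0.24, limma adjusted p = 0.0188), Lrrfip1 (0.47 ± 0.14, 0.0475) and Pdlim3 (0.67 ± 0.21, 0.0487, named after its value was seen), and lowered Cacna1c (-0.40 ± 0.12, 0.0436) and titin, Ttn (-0.67 ± 0.20, 0.0480). The medians of the 16 were -0.52, -0.38 and 0.00, against -0.06, -0.41 and 0.39 over all genes. By share, 19 of 58 transcripts in 8 of 15 genes changed in MI against sham with prednisone, where 3510 of all 8439 genes held a called share. In prednisone against vehicle after MI 15 transcripts in 9 genes changed, where 3296 of all 8439 genes held one. The largest was a transcript of the calcium channel gene Cacna1c (ENSMUST00000191196.1), at 0.516% ± 0.89 in MI vehicle and 50.6% ± 16 in MI prednisone (limma adjusted p = 4.81e-04). Rtn4 followed (ENSMUST00000060992.5, from 17.0% ± 9.6 to 54.5% ± 5.6, limma adjusted p = 0.00632). The transcripts of Ttn, named here as RBM20's best-known target and not by the naming rule, were not called: the largest, ENSMUST00000011934.11, held 73.5% in sham vehicle, 68.6% in sham prednisone, 69.4% in MI vehicle and 66.1% in MI prednisone.

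Targets of the other regulators, 20 listed and 19 tested, included 10 that fell and none that rose in MI against sham with prednisone, against 14.1% of all genes called lower. The transcription factor genes Mef2c (-1.36 ± 0.16, limma adjusted p = 0.00117), Myocd (-1.70 ± 0.21, 0.00124) and Mef2a (-1.15 ± 0.14, 0.00127) came first, then the insulin receptor gene Insr (-0.997 ± 0.14, 0.00195). After MI, prednisone against vehicle lowered 12 of 19, against 34.9% of all genes called lower, with Mef2c at -1.40 ± 0.16 (limma adjusted p = 5.47e-04), and raised 2, cardiac troponin T, Tnnt2 (0.39 ± 0.12, 0.0275), and the chloride channel gene Clcn1 (0.63 ± 0.22, 0.0418), both named after their values were seen as the only genes of the list that rose. By share, 25 of 57 transcripts in 12 of 16 genes changed in the first comparison and 27 in 13 genes in the second. Over all 8439 genes, 3510 and 3296 held a called share. In the sarcomere gene Nrap, ENSMUST00000040711.14 went from 67.9% ± 3.8 in MI vehicle to 24.9% ± 26 in MI prednisone (limma adjusted p = 0.0194) and ENSMUST00000073536.12 from 14.8% ± 2.8 to 55.9% ± 15 (0.00209). Dst (ENSMUST00000182018.7) gained 32.8 points and Clcn1 (ENSMUST00000114684.7) 35.9 points (limma adjusted p = 0.00211 and 0.00341). Over both target lists the shares of transcripts called, 19 of 58 and 25 of 57, compare with 22.5% of all transcripts, and 15 of 58 and 27 of 57 with 20.6%.

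Across the 12 libraries, the genes most like each regulator by Pearson correlation of rescaled log2 levels were picked from 8115 genes averaging 5 TPM or more. The nearest 3 were Ogdhl (r = 0.989), Dlat (0.986) and Vwa8 (0.984) for Rbm20, and Mfn2 (0.994), Plekhb2 (0.989) and Ube2b (0.987) for Rbm24. They were Maob (0.990), Mut (0.989) and Klhl23 (0.983) for Rbfox1, and Trp53inp2 (0.986), Oxct1 (0.983) and Slc30a9 (0.983) for Rbfox2. For Mbnl1 they were Erbin (0.993), Secisbp2l (0.985) and Vps4b (0.982), and for Mbnl2 Lims1 (0.996), Opa1 (0.994) and Pm20d2 (0.992). For Celf1 they were Jmy (0.977), Qser1 (0.975) and Eif4g2 (0.972), for Celf2 Zfp148 (0.981), Akap13 (0.980) and Tnpo1 (0.980), and for Qk Jmy (0.993), Pja2 (0.992) and Lims1 (0.992). The 12 points share group and library differences, and each r is the highest of a search, so these values describe the 12 libraries only. Rbm20 and Rbm24 also followed each other (r = 0.965), while Rbm20 and Mbnl1 did not (r = 0.16).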

How the data were processed

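RNA was measured in 12 hearts by stranded mRNA sequencing, per the labels' protocols. The deposited values are TPM for 105129 transcript rows, made by the authors and used as deposited. The submitters' processing notes name Trimmomatic, HISAT2, kallisto and the build mm10, with no role, and their versions are not given in the sources used here. Kallisto divides shared reads among transcripts by likelihood, so a transcript's TPM is an estimate. TPM were summed by gene symbol. Groups came from the labels. Titles number the animals, so p-values measure the spread between single mice. Levels were tested as log2(TPM + 1) with limma 3.58.1 (R 4.3.3, mean-variance trend, all 4 groups in one fit, Benjamini-Hochberg adjustment over all features tested, threshold 0.05). Fold changes on that scale understate the change of low genes. Genes and transcripts needed at least 1 TPM in at least 3 libraries. Transcript shares were tested as the arcsine of the square root, for transcripts with a mean share of at least 5%. The fits were tested on simulated data that held no library-wide shift, length trend or outlying library. That test therefore cannot say how such features affect the calls. The number of reads is not known, so no counting interval is given.

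The regulators, the lists and the rule for named genes (all 9 regulators, and up to 4 called genes of a list by adjusted p in each comparison) were chosen with earlier results of these data known. Row identifiers were matched to GENCODE M21 (GRCm38), 98.7% by identifier and 94.7% with the same version, and promoters are those of RefSeq, GRCm38.p6. Comparisons share samples: each of the 4 groups enters 2 comparisons, and all 4 enter the interaction. Alternatives were median-ratio rescaling, another pseudocount (0.1), no filter, no trend, the most abundant transcript, a length correction, a replicate block with or without it, a minimum share of 10%, the compared groups alone, and each library left out. Some genes of the target lists that meet the naming rule are not reported here.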

Additional observations from a re-analysis of the deposited data

Results flagged for a closer look

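The response to prednisone differed between MI and sham hearts, by the interaction in limma, for 6 of 9 regulators, against 21.3% of all genes. It also differed for 4 of 34 transcript shares, close to the 10.9% of all transcript shares tested. On the log2 scale the difference was -0.93 for Celf1, -1.76 for Celf2, -1.34 for Mbnl1, -1.21 for Mbnl2, -1.32 for Qk and -0.77 for Rbfox2. Median-ratio rescaling left 1141 of all genes called in place of 2797, and 2 of the 6 regulators (Celf2 and Mbnl1), with Celf1 at -0.42 and Rbfox2 at -0.26. The length correction left 275 of all genes and 1 of the 6 regulators (Celf2), with Celf1 at -0.21 and Rbfox2 at -0.08. In percentage points it was 38.5 for Celf2-202, 53.8 for Rbm20-201, -39.4 for Rbm20-203 and 45.4 for Mbnl1-214. In each case all 3 MI prednisone libraries lay beyond all 3 MI vehicle libraries. Groups of 3 were not searched for outlying samples.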

How the results depend on the processing

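Shares of Rbm20-201, Rbm20-203, Mbnl1-214, Celf2-202, Qk-201 and Qk-202 passed under every alternative run for shares in both comparisons with MI prednisone. Those alternatives were the untransformed share, a 10% minimum, the replicate block and each library left out. Rescaling cannot change a share and no length correction was run on shares, so shares and gene levels did not face the same alternatives. Gene levels depended on the scaling. Median-ratio rescaling gave 850, 3344 and 1141 genes called in MI against sham with vehicle, MI against sham with prednisone and the interaction. It left 2 regulators for prednisone after MI and 2 for the interaction, and 16 and 7 regulator transcripts. It turned MI against sham with vehicle to -0.30 for Rbfox2, -0.32 for Mbnl2, -0.25 for Celf1 and -0.37 for Qk, prednisone after MI to 0.0889 and the interaction to 0.0639 for Rbm20, and prednisone after sham surgery to -0.0612 for Rbfox1 and -0.0044 for Mbnl1. The length correction gave 746, 2163 and 275 genes for MI against sham with vehicle, prednisone after MI and the interaction, with 2 regulators for prednisone after MI and 1 for the interaction. It gave -0.29 (Rbfox2), -0.28 (Mbnl2), -0.22 (Celf1) and -0.30 (Qk) for MI against sham with vehicle, 0.25 and 0.24 for Rbm20 in prednisone after MI and the interaction, and -0.0605 (Rbfox1) and -0.0182 (Mbnl1) for prednisone after sham surgery, the same with the block. MI against sham with vehicle gave 1068 genes without the filter, 586 by the most abundant transcript and 2 in the fit of these groups alone, each with 0 regulators. By the most abundant transcript Celf1 was at -0.16 and Qk at -0.00021 there, and Rbfox1 at -0.0113 and Celf1 at -0.0064 for prednisone after sham surgery. Prednisone after MI gave 808 genes and 4 regulators with the MI groups alone, and 9 regulator shares at the 10% minimum. That minimum takes transcripts with a smaller mean share out of the test, so a lower count there need not mean lost calls. The cause of the differences between settings was not tested.

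Leaving out each library in turn gave 120 to 5631 genes and 0 to 3 regulators for MI against sham with vehicle, with 0 to 2 transcripts. It gave 1027 to 2630 genes, 6 to 9 regulators, and 7 to 20 shares for MI against sham with prednisone, and 3245 to 6274 genes, 6 to 9 regulators and 9 to 21 shares for prednisone after MI. For prednisone after sham surgery it gave 4 to 9 genes, against 15 with all 12 libraries. There Rbm24 ranged from -0.0156 (without sham vehicle replicate 1) to 0.174 and Rbfox1 from -0.0625 (without sham prednisone replicate 3) to 0.0647. The interaction gave 1111 to 4520 genes, 4 to 8 regulators, 9 to 21 transcripts and 4 to 10 shares.

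The replicate numbers name different animals and same-numbered libraries did not deviate together (mean r of -0.37, -0.05, -0.25 and 0.0028 in the 4 comparisons), so the numbers do not pair the samples. With the replicate block 1056 genes were called for MI against sham with vehicle and 7 for prednisone after sham surgery. The regulators called were 0, 9, 8 and 0 in the 4 comparisons and 6 in the interaction. With the block and the length correction 76, 1019, 1447, 6 and 99 genes were called, with 0, 4, 2 and 1 regulators in the comparisons other than prednisone after sham surgery.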
